A study of Arundo donax with 9 samples.

Results

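The 3 leaf libraries of plants that received no salt, named G2-CK replicates 1 to 3, are described here on their own. They were taken by their labels from the 9 leaf libraries of the series, the other 6 being from plants irrigated with salt, which are not compared here. Giant reed (Arundo donax) is a tall perennial grass grown as a biomass crop, and G2 is 1 clone of it. Each plant grew from a single rhizome in a pot of sandy soil and was irrigated weekly with water holding 0 mM NaCl. From each plant, transplanted in July, the third leaf from the top, fully expanded and not senescing, was harvested in November, and polyadenylated RNA was sequenced. The study lists the 3 plants per treatment as biological replicates, so the spread between libraries holds plant-to-plant as well as technical differences. The pots stood in randomized blocks. The labels do not give the block of a plant, so block and plant differences cannot be told apart here. The study's assembly had no reference genome, so the features are unigenes, each the longest transcript of a cluster of assembled transcripts. In these libraries 212243 unigenes were listed at least once.

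Giant reed is a C3 grass, in which Rubisco fixes carbon dioxide directly in mesophyll chloroplasts. Rubisco also reacts with oxygen, and the product is salvaged by photorespiration, a pathway that passes through chloroplasts, peroxisomes and mitochondria. The mRNA of a mature leaf blade is therefore known to be rich in messages for the Calvin cycle, the photosystems and photorespiration, beside those for making and breaking down proteins. Most subunits of the photosynthetic complexes are encoded in the nucleus, and a smaller number, among them the large chain of Rubisco, in the chloroplast genome.

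The deposited lists held 166873, 166775 and 167604 unigenes in replicates 1, 2 and 3, with 24.2, 25.4 and 22.8 M estimated reads (M, 1000000). Every list stopped just above 0.3 FPKM (the smallest value was 0.31), which corresponded to a median of 5.3 reads. All 3 lists shared 126422 unigenes (59.6%), and these held 94.6% of the abundance. A further 36165 unigenes were listed in 2 libraries and 49656 in 1, with means of 2.89% and 2.49% of the abundance in those sets. Abundance is given as TPM, that is, the deposited FPKM scaled to 1000000 per library over the listed unigenes, and unlisted values were taken as 0. Replicate 1 stood apart from the other libraries in some names: 54 protein names were over 1.5 times higher in it than in both others. Photosynthetic messages were lowest in replicate 1 and highest in replicate 2. Their share was 3.73% of the TPM over all 3 libraries, 3.87% without replicate 1 and 3.61% without replicate 2. Values are therefore given per library.

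The libraries carried the marks of a photosynthetic leaf blade. The 3 mesophyll markers (Rubisco small chain, chlorophyll a-b binding proteins and phosphoribulokinase) summed to 9333, 11416 and 10542 TPM in replicates 1, 2 and 3. Markers of epidermis and cuticle summed to 2126, 1783 and 2219 TPM, those of phloem to 812, 765 and 776 TPM, and those of guard cells to 31.8, 30.4 and 34.0 TPM. Seed markers were low (5.49 to 7.28 TPM in sum), as were those of pollen and flower (22.0 to 24.0 TPM). Markers of lignifying vascular cells summed to 30.5, 20.8 and 28.8 TPM. Those of dividing cells summed to 223, 226 and 230 TPM, mostly from B-type cyclins (214 ± 3.81 TPM). The sieve element occlusion proteins, MUTE, SPEECHLESS, xylem cysteine proteinases, 1-Cys peroxiredoxins, globulin-1 and the nitrate transporter 2.1 were not listed in any library. Of the root markers, the nicotianamine synthases supplied 94.6 ± 13.2 TPM (SD, n = 3) and the Casparian strip proteins 5.33 ± 0.264 TPM. Senescence markers summed to 2513, 2191 and 2067 TPM, of which 2252, 2001 and 1855 TPM came from the proteases SAG39 and SAG12, although the leaves were sampled as non-senescing. Hits on organisms other than green plants numbered 106 unigenes, with 69.6, 82.3 and 114 TPM. In bulk tissue, more cells of a type and more RNA per cell cannot be told apart.

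The leaf mRNA was spread over many unigenes. The most abundant unigene held 0.805 ± 0.0510% of the TPM (SD, n = 3), the 10 most abundant 3.69 ± 0.213%, the 100 most abundant 11.03 ± 0.334% and the 1000 most abundant 27.3 ± 0.344%. The number of unigenes that held 50% of the TPM was 5499, 5539 and 5760 in replicates 1, 2 and 3. By estimated reads it was 5449, 5339 and 5564, nearly the same. A Swiss-Prot protein name was attached to 41.7% of the unigenes, and these carried 63.3 ± 0.645% of the TPM and 79.2% of the reads. Entries of the Nr database covered 80.6 ± 0.684% of the TPM and KO entries 40.6 ± 0.126%. The genus with most best hits was Setaria, the foxtail millets, with 58411 unigenes and 34.7% of the TPM, followed by Zea with 12.4%, Oryza with 11.1% and Sorghum with 10.97%.

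Short unigenes weighed more in TPM than in reads. The shortest unigenes, of at most 300 bp, held 12.9% of the TPM and 0.182% of the reads, whereas those over 2000 bp held 13.9% of the TPM and 45.5% of the reads. Relative to its full length, a unigene of at most 300 bp was credited with 0.0978 times the countable length of one over 2000 bp, so that a few reads gave a high FPKM. The share of reads is therefore printed beside the TPM where short unigenes carry much of a name.

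By TPM, the leading protein name was Polyubiquitin 11, a precursor of the tag that marks proteins for breakdown, with 13623, 11903 and 11871 TPM in replicates 1, 2 and 3. All 4 of its unigenes were 238 to 253 bp long and together they held only 0.0124% of the reads, which placed the name at rank 1513 by reads. The names after it were high on both scales. Metallothionein-like protein 3B, a small metal-binding protein, had 7605, 6935 and 5589 TPM and 0.535% of the reads. Abscisic stress-ripening protein 2, a small hydrophilic protein of a family known from ripening and water stress, had 6762, 5377 and 4921 TPM and 0.549% of the reads. Both were highest in replicate 1 and lowest in replicate 3.

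Next came enzymes of the carbon cycle of the leaf. Peroxisomal (S)-2-hydroxy-acid oxidase GLO5, the glycolate oxidase of photorespiration, had 5053, 5102 and 5271 TPM, a spread of 2.22% (coefficient of variation, CV, the SD over the mean). Rubisco small chain A, 1 of the 4 names of the small subunit, had 4623, 5675 and 5026 TPM, lowest in replicate 1 and highest in replicate 2. Glycine-rich RNA-binding protein GRP1A, of a family that includes clock-controlled members in Arabidopsis, followed with 3776, 3181 and 3683 TPM. The remaining names of the first 15 were histone H3.3 (3507 ± 286 TPM), glyoxysomal malate dehydrogenase (2915 ± 410 TPM), elongation factor 1-alpha (2173 ± 121 TPM), serine-glyoxylate aminotransferase (2004 ± 74.6 TPM), the protease SAG39 (1929 ± 194 TPM), photosystem II protein M (1905 ± 82.0 TPM), the iron-sulfur subunit of cytochrome b6-f (1893 ± 107 TPM), metallothionein-like protein 1B (1865 ± 212 TPM) and vacuolar-processing enzyme (1861 ± 163 TPM). Of these, histone H3.3 owed 37.3% and elongation factor 1-alpha 34.3% of its TPM to unigenes of at most 300 bp. Their shares of the reads were 0.160% and 0.0952%. By reads the first name was Protein TAR1 with 0.565 ± 0.0326%. Its reads lay almost wholly on 1 unigene of 4424 bp whose nucleotide hit is an rRNA gene, and it ranked 30 by TPM.

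**Figure D1:**
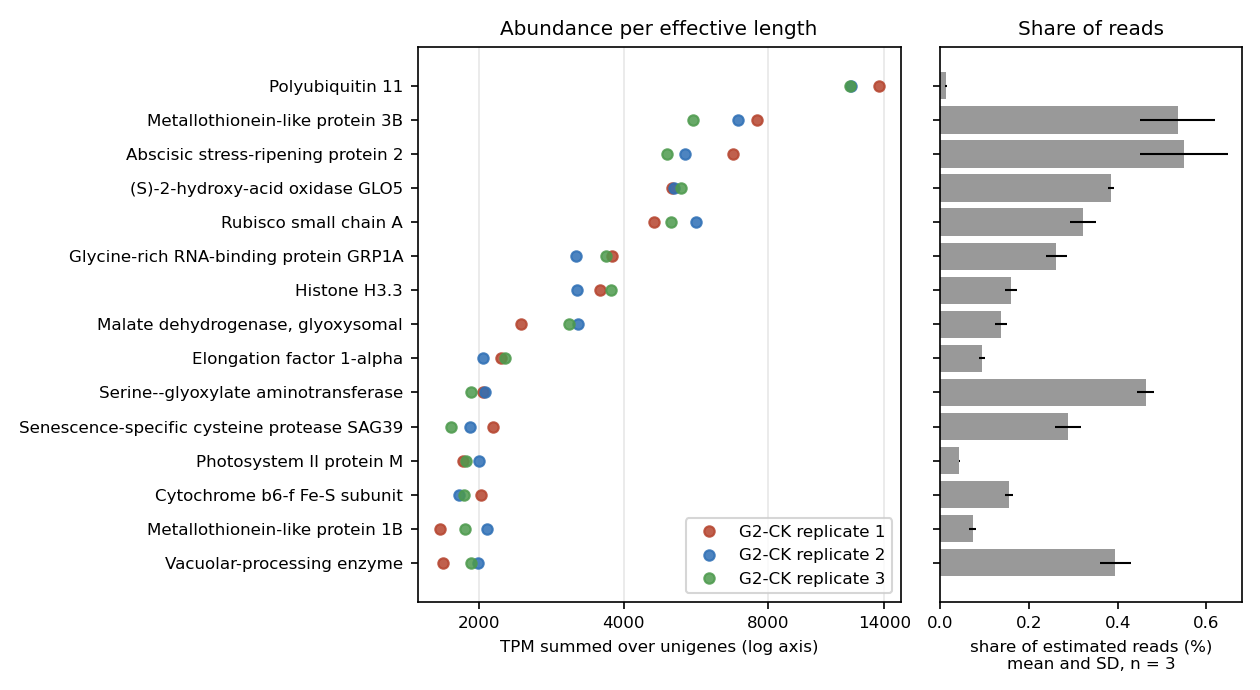
The 15 protein names of highest mean TPM in the unstressed leaf. Left, TPM in each of the 3 G2-CK libraries (points, log axis); right, share of estimated reads (bars, mean; lines, SD, n = 3). Polyubiquitin 11 is first by TPM but holds 0.0124% of the reads, while the metallothionein 3B and abscisic stress-ripening names are high on both scales.

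The 42 families of the list, which was drawn up by role, together show how the named part of the leaf message was divided. Families were assigned by Swiss-Prot name, and unigenes with a name carried 63.3% of the TPM. Unnamed unigenes were therefore left out, among them a Rubisco small chain hit (3295 ± 717 TPM) and a plastoquinol-plastocyanin reductase hit (1251 ± 140 TPM). Photosynthesis in the narrow sense, 11 families of carbon fixation and the light reactions with 515 unigenes, held 3.73 ± 0.263% of the TPM and 4.46 ± 0.321% of the reads. Within it the light reactions took 2.15 ± 0.112% of the TPM and carbon fixation 1.58 ± 0.152%. Translation took 4.04 ± 0.0991%, photorespiration 1.56 ± 0.0749% and redox proteins 1.17 ± 0.0355%.

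Among the light reactions, photosystem II subunits were the most abundant family with 6823, 7418 and 7286 TPM in replicates 1, 2 and 3. Their leading nuclear-encoded name was oxygen-evolving enhancer protein 1, which stabilises the water-splitting cluster, at 1718 ± 151 TPM. The carriers that pass electrons between and beyond the photosystems had 4756, 5010 and 4823 TPM, with leaf ferredoxin-NADP reductase at 1629 ± 130.0 TPM and plastocyanin at 915 ± 43.6 TPM. Light-harvesting proteins, the antenna of both photosystems, had 3836, 4470 and 4414 TPM, led by the names 1B-21 (1256 ± 137 TPM) and CP26 (1109 ± 105 TPM). CP26 owed 38.5% of its TPM to unigenes of at most 300 bp and held 0.0441% of the reads, against 0.125% for 1B-21. Photosystem I subunits had 3564, 4183 and 3877 TPM and the plastid ATP synthase 1278, 1370 and 1351 TPM. In all of these families replicate 1 was lowest and replicate 2 highest.

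Carbon fixation showed the same order of libraries. The Rubisco small chain family had 5139, 6458 and 5711 TPM and the other Calvin cycle enzymes 6593, 7827 and 7412 TPM. Among these enzymes, plastid fructose-bisphosphate aldolase reached 1167 ± 193 TPM, ribulose-phosphate 3-epimerase 1097 ± 48.6 TPM and sedoheptulose-1,7-bisphosphatase, which commits carbon to regeneration of the acceptor, 882 ± 115 TPM. The epimerase owed 32.0% of its TPM to unigenes of at most 300 bp and held 0.0914% of the reads. Rubisco activase, which frees the enzyme of bound sugar phosphates, had 674, 1003 and 829 TPM and the widest spread among the photosynthetic families (CV 19.7%). The chaperonins that assemble Rubisco had 1452, 1535 and 1498 TPM and the carbonic anhydrases, mitochondrial names included, 377, 437 and 403 TPM. Replicate 1 was lowest and replicate 2 highest in 11 of 11 photosynthetic families, and replicate 1 was lowest in 8 of the 31 other families. Of the 64 photosynthetic protein names of at least 50 TPM, 50 were lowest in replicate 1 (78.1%), against 39.4% of the 2796 other names.

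**Figure D2:**
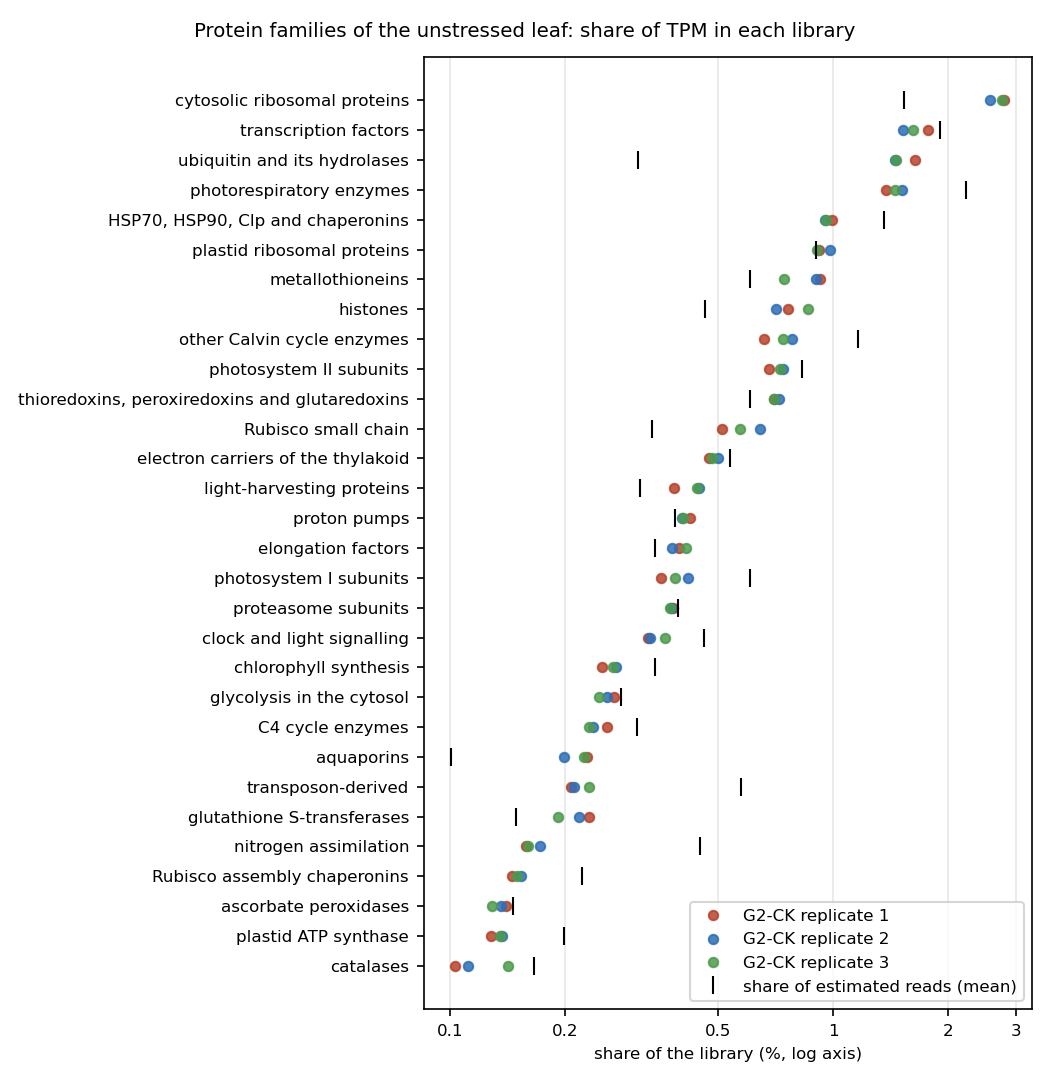
Share of TPM of the 30 most abundant protein families in each G2-CK library (points, log axis) with the mean share of estimated reads (black ticks). Cytosolic ribosomal proteins lead by TPM and photorespiratory enzymes by reads; the points of replicate 1 lie lowest in the photosynthetic families.

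Among the unigenes with a protein name, photorespiration was as heavily represented as carbon fixation by TPM. The photorespiratory enzymes, 157 unigenes under 22 names, had 13768, 15093 and 14526 TPM, and with 2.22% they were the first of the 42 families by reads. Glycolate oxidase appeared under GLO5 and GLO1 (1186 ± 47.5 TPM). Serine-glyoxylate aminotransferase, which turns serine into hydroxypyruvate in the peroxisome, had 2039, 2054 and 1918 TPM, and hydroxypyruvate reductase HPR had 1233, 1572 and 1356 TPM. The pair of glutamate-glyoxylate aminotransferases, which make glycine, lay close together at 1143 ± 181 TPM and 1129 ± 53.7 TPM. Catalases, which remove the hydrogen peroxide that glycolate oxidase makes, had 1028, 1113 and 1415 TPM, highest in replicate 3.

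The enzymes known from the C4 cycle, which C3 plants also use for other purposes, had 2564, 2364 and 2302 TPM in sum. Phosphoenolpyruvate carboxylase 2 had 583 ± 44.0 TPM, the plastid NADP malate dehydrogenase 540 ± 58.7 TPM and phosphoenolpyruvate carboxylase 1 428 ± 67.0 TPM. Carboxylase 2 owed 14.1% of its TPM to unigenes of at most 300 bp. By reads it lay below carboxylase 1 (0.0316% against 0.0502%). Plastid NADP malic enzyme had 170 ± 14.8 TPM. The family was thus 0.241 ± 0.0137% of the TPM, against 0.577 ± 0.0661% for the named Rubisco small chains alone. By reads the shares lay closer together, at 0.307% for the family and 0.337% for the small chain.

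Messages of plastid-encoded proteins were few, in libraries prepared by selection for poly(A) tails. Of 15 such proteins searched, 14 were listed. The Rubisco large chain had 24.9, 32.9 and 31.0 TPM, and the reaction centre protein D1 103, 113 and 175 TPM. The beta subunit of the ATP synthase had 2.91 ± 0.331 TPM and cytochrome f 9.91 ± 1.04 TPM. Photosystem II protein M, on a single unigene, stood apart from the other plastid-encoded names with 1844, 1999 and 1873 TPM. Unigenes whose nucleotide hit is a chloroplast genome numbered 221 and held 0.486 ± 0.0406% of the reads, those hitting an rRNA entry 0.646 ± 0.0323% and those hitting a mitochondrial sequence 0.104 ± 0.0123%.

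With light reactions and carbon fixation counted as separate roles, the machinery of protein synthesis was the most abundant role. It held 4.04% of the TPM and 2.78% of the reads. Photosynthesis as a single group held less of the TPM (3.73%) but more of the reads (4.46%). Cytosolic ribosomal proteins, 940 unigenes under 173 names, had 28006, 25659 and 27582 TPM, and no name held more than a small part (60S protein L23, the first, had 761 ± 36.9 TPM). Plastid ribosomal proteins had 9204, 9832 and 9082 TPM and the elongation factors 3959, 3802 and 4121 TPM. On the side of protein turnover, ubiquitin and its hydrolases had 16402, 14475 and 14602 TPM, of which 85.6% lay on unigenes of at most 300 bp, and their share of reads was 0.3097%. Proteasome subunits, with 4.31% on such unigenes, had 3816, 3783 and 3750.5 TPM, the smallest spread of all families (CV 0.866%). HSP70, HSP90, Clp proteins and chaperonins had 9960.3, 9511 and 9597 TPM, whereas the small heat shock proteins, which are typical of heated tissue, had 188, 174 and 193 TPM.

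Several protective groups were expressed in the absence of added salt. The metallothioneins reached 9259, 9015 and 7461 TPM on 12 unigenes. Thioredoxins, peroxiredoxins and glutaredoxins had 7030.5, 7242 and 7022 TPM, led by plastid thioredoxin M (1396 ± 55.9 TPM). Ascorbate peroxidases, which detoxify hydrogen peroxide with ascorbate, had 1404, 1363 and 1288 TPM and superoxide dismutases 1164, 1179 and 1097 TPM. Glutathione S-transferases had 2310, 2174 and 1913 TPM. Dehydrins and other LEA proteins, which accumulate in drying tissue, were lower at 519, 655 and 542 TPM, and pathogenesis-related proteins had 843, 625 and 658 TPM.

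Transport and primary metabolism took smaller shares. Aquaporins had 2284, 1986 and 2239.8 TPM, led by the tonoplast channel TIP4-2 (1043 ± 227 TPM). The proton pumps that energise the plasma membrane and the vacuole had 4229, 4039.6 and 4059 TPM. Cytosolic glycolysis had 2685, 2564 and 2454 TPM, and sucrose and starch synthesis 998, 1127 and 1124 TPM, or 1523, 1588 and 1635 TPM with proteins named as probable or putative, which the search of names had missed. Nitrogen assimilation had 1578, 1718 and 1597 TPM, with 473 ± 41.4 TPM of plastid glutamine synthetase and 453 ± 53.8 TPM of ferredoxin-dependent glutamate synthase, the pair that recaptures photorespiratory ammonia. Chlorophyll synthesis had 2493, 2706 and 2657 TPM. Cell wall enzymes such as expansins and cellulose synthases, which serve growing tissue, had 439, 411 and 385 TPM, or 1126, 1031 and 1058 TPM with the probable and putative ones. Lipid-transfer proteins had 444, 425 and 558 TPM and ferritins 152, 163 and 146 TPM.

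Transcription factors were numerous, and each name held a small part of the family's TPM. Their 3276 unigenes under 527 names had 17693, 15227 and 16185 TPM, and the first 3 names, NAC83, NAC48 and the homeobox protein HOX16, had 461 ± 41.2, 427 ± 86.2 and 416 ± 54.6 TPM. Components of the clock and of light signalling had 3282, 3323 and 3631 TPM, led by CONSTANS-LIKE 5 (874 ± 47.6 TPM). Histones had 7619, 7103 and 8583 TPM. Names derived from transposons took up 1557 unigenes and 2069, 2106 and 2306 TPM, which is 0.216% of the TPM and 0.576% of the reads.

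Many of the leading KO entries matched leading protein names. First were ubiquitin C (K08770, 12835 ± 1066 TPM and 0.0181% of reads), (S)-2-hydroxy-acid oxidase (K11517, 6441 ± 160.1 TPM), Rubisco small chain (K01602, 5769 ± 661 TPM), histone H3 (K11253, 3533 ± 286 TPM) and malate dehydrogenase (K00026, 3279 ± 393 TPM). They were followed by thioredoxin 1 (K03671, 3206 ± 99.3 TPM), glutamate-glyoxylate aminotransferase (K14272, 2271 ± 233 TPM), chaperonin GroEL (K04077, 2264 ± 26.7 TPM), elongation factor 1-alpha (K03231, 2236 ± 123.1 TPM) and HSP70 (K03283, 2219 ± 143 TPM). By reads, glycolate oxidase came first with 0.646%.

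GO terms divided the same message by process. Oxidation-reduction process held 7.33 ± 0.0751% of the TPM, ribosome biogenesis 3.60 ± 0.0447%, regulation of transcription 3.50 ± 0.0655%, translation 3.46 ± 0.0422% and metabolic process 2.68 ± 0.0347%. Of the molecular functions, protein binding held 7.52 ± 0.148%, ATP binding 6.46 ± 0.126%, DNA binding 5.13 ± 0.110%, oxidoreductase activity 3.74 ± 0.00330% and zinc ion binding 3.57 ± 0.0562%. Of the cellular components, integral component of membrane held 5.56 ± 0.0694%, membrane 5.02 ± 0.0973%, ribosome 4.34 ± 0.0361%, nucleus 3.87 ± 0.0756% and intracellular 3.03 ± 0.0457%. One unigene may carry many terms, so these shares overlap.

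Abundance per unigene differed strongly between terms. Chloroplast thylakoid membrane held 11.9 times the TPM of its share of unigenes and cytosolic ribosome 13.4 times. Their shares of the reads were 1.49% and 0.789%. Protein kinase activity, with 2.35% of the unigenes, held less of the TPM (1.70%) but more of the reads (2.90%). ADP binding, a term typical of resistance proteins, held 0.613, 0.473 and 0.466% of the TPM in replicates 1, 2 and 3. It had 0.641% of the unigenes and 0.853% of the reads. The GO term photosynthesis held 1.68, 1.85 and 1.79% of the TPM in replicates 1, 2 and 3, again lowest in replicate 1.

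Some of the most abundant unigenes had no protein name. The first of all, Cluster-14027.157828 of 462 bp, had 8272, 8416 and 7469 TPM, and its best Nr hit is an uncharacterized protein of Setaria italica (LOC101771648). Together with Cluster-14027.157463 (3003 ± 212 TPM) and the other 2 unigenes of that hit it summed to 11802, 11704.5 and 10526 TPM and 0.405% of the reads, more reads than the glycolate oxidase name GLO5. The next unigenes by TPM, Cluster-14027.158523 and Cluster-14027.156538, and the fifth, Cluster-14027.160860, were polyubiquitins with means of 5133, 3646 and 3221 TPM. Cluster-14027.157760, the fourth, had no Swiss-Prot name, but its nucleotide hit is a Rubisco small chain of Setaria italica. It had 2871, 4124 and 2892 TPM, highest in replicate 2 like the named small chains. A further unnamed group hit a glycine-rich cell wall structural protein and had 3204, 3471 and 3003 TPM on 3 unigenes.

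The spread between the 3 libraries was small for well-counted unigenes. Over the 18033 unigenes with a mean of at least 10 TPM the median CV was 11.6% (the middle 50% lay between 6.75% and 20.2%), over 7521 protein names of at least 10 TPM it was 8.01%, and over the 42 families 5.78%. Unigenes with 10 to 30 reads had a median CV of 27.1%, where counting error alone gives 23.4%, and unigenes with 1000 to 3000 reads had 8.06%, where it gives 2.62%. Beyond 3000 reads it was 7.98%, where counting error gives 1.46%. The edgeR dispersion gave a biological coefficient of variation of 14.2% over all and 12.9% for unigenes above 3000 reads. Among unigenes of at least 10 TPM, those of at most 300 bp had a median CV of 45.5% on a median of 5 reads, against 7.99% for those over 2000 bp on 1266 reads.

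**Figure D3:**
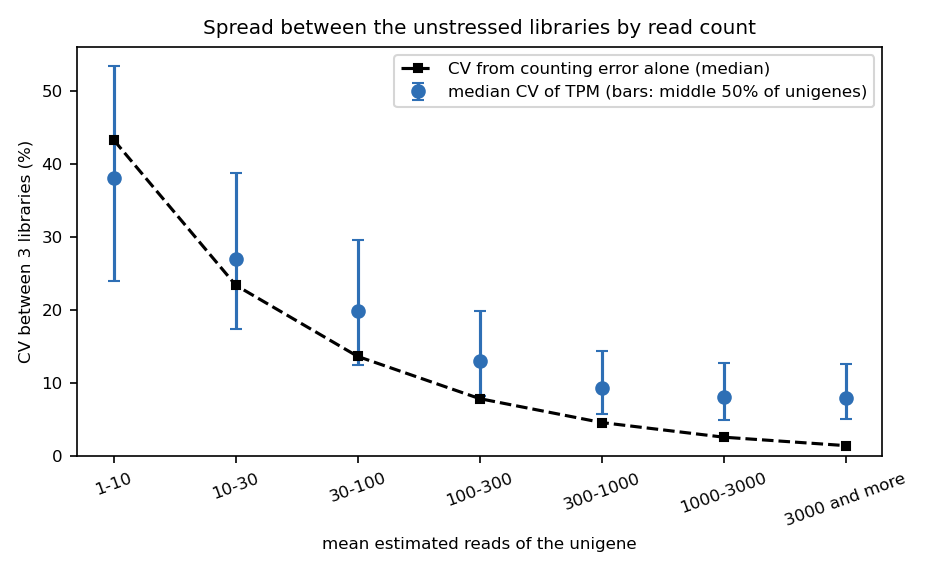
Coefficient of variation between the 3 G2-CK libraries against the mean estimated reads of the unigene, for unigenes listed in all 3 lists (points, median; bars, middle 50% of unigenes), with the value that counting error alone gives (squares). The median falls to 7.98% above 3000 reads, where counting error gives 1.46%.

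Replicates 2 and 3 were the closest pair. Across the 126422 unigenes listed in all libraries, log2(TPM + 1) gave Pearson's r of 0.966 between replicates 2 and 3, 0.961 between 1 and 2 and 0.960 between 1 and 3. These are correlations across genes, which are not independent replicates. At 10 TPM or more, 3.13% of the unigenes differed over 2-fold between replicates 2 and 3, against 4.19% between 1 and 2 and 4.24% between 1 and 3. The median CV of unigenes was 8.41% without replicate 1, 9.90% without replicate 2 and 10.6% without replicate 3. A CV over 2 libraries has a lower median by construction, so these values can be compared only with each other.

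The 8 names of at least 50 TPM with the most constant TPM had different roles. The 60S ribosomal protein L13-1 had 254, 255 and 254 TPM (CV 0.112%), calmodulin-binding protein 60 B had 172, 171 and 172 TPM, and the 60S ribosomal protein L10a 165, 166 and 165 TPM. The others of the first 8 were subunit 2 of transcription initiation factor IIA (123.4 TPM), lumenal subunit 4 of the photosynthetic NDH complex (129 TPM), a BI1-like protein (187 TPM), the cargo receptor p24beta2 (82.1 TPM) and proteasome subunit beta type-6 (76.4 TPM), with CVs of 0.213% to 0.302%. Their spread in TPM was below the counting error of their reads (1.22% to 2.38%). By share of reads all 8 spread more than by TPM. The share was least spread for p24beta2 (0.00732 ± 4.92e-05%) and most for subunit 2 of factor IIA (0.0120 ± 0.000656%).

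In 5 of the 8 most variable names replicate 1 was highest and replicate 3 lowest. Chalcone synthase 6 had 121, 40.1 and 15.7 TPM in replicates 1, 2 and 3 (CV 93.5%), WRKY28, a transcription factor, 189, 54.2 and 36.8 TPM, chalcone synthase C2 423, 156 and 62.6 TPM, and flavonoid 3'-monooxygenase 262, 100 and 62.9 TPM. NAC68, another transcription factor, had 92.7, 33.6 and 27.7 TPM. The other 3 owed 38.7% to 95.5% of their TPM to unigenes of at most 300 bp. They were the signal recognition particle receptor alpha (106, 16.3 and 45.1 TPM, on 44, 20 and 24 reads), a Sec24-like protein (34.9, 39.7 and 117 TPM, on 1795, 1962 and 1869 reads) and cyclin-dependent kinase C-2 (45.2, 116 and 31.9 TPM, on 553, 590 and 558 reads). In the last pair, the reads of the libraries lay much closer together than the TPM.

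Of 10 enzymes of the flavonoid pathway 8 were listed, of which 7 were highest in replicate 1 and 4 were lowest in replicate 3. The choice of these enzymes was made after chalcone synthase had been seen among the most variable names, so their order is a description. Phenylalanine ammonia-lyase, the entry into phenylpropanoids, had 282, 122.9 and 161 TPM, cinnamate 4-hydroxylase 187, 70.03 and 69.5 TPM and 4-coumarate-CoA ligase 149, 62.8 and 74.5 TPM. Chalcone synthase, the first committed step, summed to 580, 218 and 93.0 TPM over 13 unigenes, chalcone isomerase to 141, 68.9 and 42.8 TPM and flavonoid 3'-hydroxylase to 262, 100 and 62.9 TPM. All of these were highest in replicate 1, by 2.05 to 2.67 times over replicate 2 and 1.76 to 6.24 times over replicate 3. Dihydroflavonol reductase was low in all libraries (11.7, 6.25 and 10.1 TPM), as was anthocyanidin 3-O-glucosyltransferase, the only 1 of the 8 listed enzymes not highest in replicate 1 (18.4, 25.3 and 20.4 TPM).

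Replicate 1 stood apart in other names too. Of 2560 names with at least 50 TPM and 1000 reads, 54 were more than 1.5 times higher in replicate 1 than in both other libraries, against 5 in replicate 2 and 7 in replicate 3. By share of reads the counts were 48, 0 and 1, and 42 of the names of replicate 1 were shared by both scales. The examples that follow are from the 54 and were picked after their values were seen. Among the transporters, sodium/hydrogen exchanger 1, a vacuolar antiporter, had 203, 105 and 94.6 TPM, potassium transporter 1 had 323, 165 and 146 TPM and sugar transport protein 13 had 462, 217 and 217 TPM. The plastid chaperone ClpD1 had 423, 218 and 175 TPM. Names of ethylene and jasmonate signalling were also there, with 1-aminocyclopropane-1-carboxylate oxidase, which makes ethylene, at 318, 199 and 147 TPM, the F-box protein EBF1, which restrains ethylene signalling in Arabidopsis, at 132, 68.8 and 74.5 TPM, the jasmonate factor MYC2 at 129.6, 58.7 and 70.9 TPM and the repressor TIFY 10c at 92.0, 30.2 and 50.4 TPM. STAY-GREEN, which starts chlorophyll breakdown, had 127, 71.4 and 74.4 TPM. On the low side, 6 names were as far below both other libraries in replicate 1, 10 in replicate 2 and 14 in replicate 3 (4, 2 and 9 by share of reads). Zinc finger protein BRUTUS, a regulator of iron responses, was 1 of the 6, with 383, 596 and 632 TPM. All 3 plants were labelled alike as unsalted, and the depth of replicate 1 lay between the others. The summed senescence markers, mostly SAG39 and SAG12, were highest in replicate 1 (2513, against 2191 and 2067 TPM in replicates 2 and 3). Of them, pheophorbide a oxygenase was highest in replicate 3 instead (128, 112 and 131 TPM). The mesophyll markers, which belong to the photosynthetic families described above, were lowest in replicate 1. The part of these markers in the differences was not tested.

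**Figure D4:**
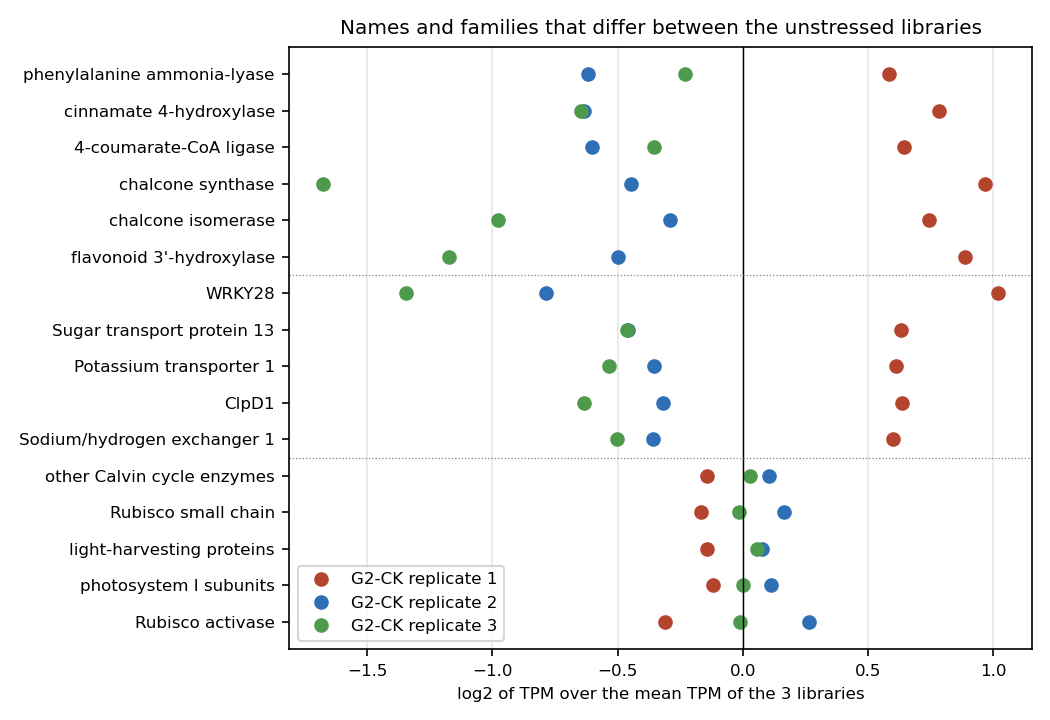
TPM in each G2-CK library relative to the mean of the 3 libraries (log2) for 6 enzymes of the flavonoid pathway (top), 5 other names high in replicate 1 (middle) and 5 photosynthetic families (bottom). Replicate 1 lies highest in the upper groups and lowest in the photosynthetic families, where the distances are smaller; the names were chosen after their values were seen.

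Most protein names were carried by many unigenes, which may be gene copies, alleles or fragments of the assembly. Near-identical copies share reads, so the division of reads between them by RSEM is uncertain. Of the 2860 names with at least 50 TPM, 59 had 1 unigene, 407 had 2 to 4 and 2394 had 5 or more, with a median of 11 in the last set. In that set the leading unigene held a median of 36.7% of the name's TPM (middle 50%, 26.3% to 49.5%). The effective number of copies, the inverse of the summed squared shares, had a median of 4.24. A single unigene held over 50% of the TPM in 584 names (24.4%) and over 90% in 29. The leading share was 46.4% at the median for names of 5 to 9 unigenes and 12.96% for names of 50 or more. The same unigene led in all 3 libraries in 1914 names (79.9%), and the leading unigene by TPM also led by reads in 51.2%.

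The names with the most unequal copies were held by 1 unigene almost alone. The plastid 30S ribosomal protein S9 had 98.6% of its 122.7 TPM on 1 of 5 unigenes, subunit O of the NAD(P)H-quinone oxidoreductase 98.1% of 171 TPM on 1 of 6 and the 60S acidic ribosomal protein P1 97.7% of 251 TPM on 1 of 5. Xyloglucan endotransglucosylase 28 (97.6%), sucrose-phosphate synthase 5 (97.2%) and geranylgeranyl pyrophosphate synthase (96.1%) followed. At the other end, the uncharacterized protein At1g04910 was spread over 164 unigenes with a leading share of 3.89%, FAR1-RELATED SEQUENCE 5, of a transposase-derived family, over 229 with 5.19%, and a G-type lectin receptor kinase over 71 with 5.61%. The disease resistance protein RPP13-like 3 (6.22% over 97), heterogeneous nuclear ribonucleoprotein 1 (6.74% over 51) and a putative ribonuclease H protein (7.08% over 169) came next.

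The abundant leaf enzymes lay between these ends. SAG39 rested on 1 of 8 unigenes, Cluster-14027.160509, with 92.1, 90.3 and 91.7% of its TPM in replicates 1, 2 and 3. GLO5 had 57.2, 51.7 and 55.1% on Cluster-14027.158933, and its second copy, Cluster-14027.158035, had 859, 970 and 923 TPM, lowest in replicate 1, where the leading copy had 2888, 2638 and 2906 TPM, lowest in replicate 2. Serine-glyoxylate aminotransferase was carried by 3 of 5 unigenes with means of 913, 738 and 337 TPM. Metallothionein-like protein 3B had 4 large copies with means of 2350.3, 2137, 1484 and 597 TPM, each of them lowest in replicate 3. The Rubisco small chain A was among the most evenly shared of the first 15 names, with an effective number of 5.54 of 10 unigenes. Its leading unigene by TPM, Cluster-14027.157758 of 448 bp, held 29.8%, while by reads Cluster-14027.158528 of 1449 bp led with 35.1%.

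**Figure D5:**
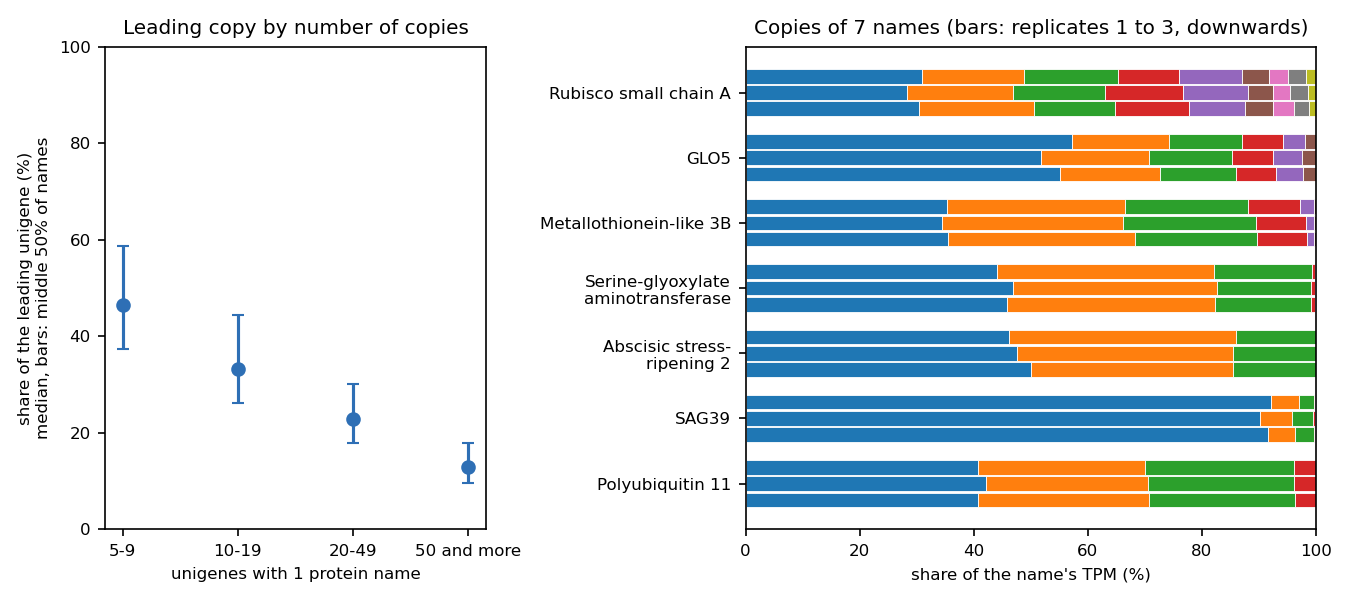
Left, share of a name's TPM held by its leading unigene against the number of unigenes of the name (points, median; bars, middle 50% of names; 2394 names). Right, share of TPM of each unigene of 7 abundant names in the 3 G2-CK libraries (1 bar per replicate, 1 to 3 downwards; colours, unigenes in order of mean TPM). SAG39 rests on 1 unigene, and the order of shares is nearly the same in the 3 bars of each name.

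The qRT-PCR assay that went with these libraries covered 11 unigenes. Of these, 10 were listed here, and 9 had means of 0.376 to 12.6 TPM. The reference gene of that assay, RPN6 (Cluster-14027.113435, a lid subunit of the proteasome), had 12.8, 12.5 and 12.6 TPM on 618, 634 and 567 reads, a CV of 1.24%. That spread was below the counting error of its reads (4.06%). The Rubisco small chain unigene of the assay, Cluster-14027.159114, had 78.4, 74.4 and 62.3 TPM, highest in replicate 1, unlike its name as a whole, and it carried 1.40% of the TPM of the small chain A name. The primers of the reference and of this minor Rubisco copy are shown to tell which unigenes were assayed. They are taken from the primer table that accompanies the data, 5' to 3', with no base marked, and whether they also match the other small chain copies was not tested.
RPN6 forward: cacacgactagcagctttcaag
RPN6 reverse: ttcaaacgtcgggaaggttg
Rubisco small chain forward: cagcaacggtggaaggatca
Rubisco small chain reverse: ttctcacggaagacgaagcc

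The other measured unigenes were scarce in the unstressed leaf. A senescence-associated protein (Cluster-14027.62961) had 7.13, 4.53 and 5.23 TPM, an ACC oxidase (Cluster-14027.99727) 6.35, 3.12 and 4.23 TPM and a NAC factor (Cluster-14027.24929) 3.16, 2.99 and 1.93 TPM. The remaining ones were a palmitoyltransferase (1.63 ± 0.0945 TPM), proline dehydrogenase 2 (0.832 ± 0.186 TPM), a WRKY factor (0.819 ± 0.368 TPM), an uncharacterized protein (0.781 ± 0.312 TPM) and an anthocyanidin glucosyltransferase (0.376 ± 0.141 TPM). These last 5 had 9 to 119.8 reads per library, and a methyltransferase was not listed in any of the 3.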

How the data were processed

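Leaf RNA of 3 unsalted plants of the G2 clone was analysed; the 6 libraries of salted plants were not used. Each deposited list gives an estimated count and an FPKM per unigene. The authors filtered paired-end reads, built transcripts with Trinity, clustered transcripts with Corset, mapped with bowtie2 and estimated counts with RSEM. How FPKM was made is not given in the sources used here; from the values, it divides by an effective length. The lists end above 0.3 FPKM. FPKM was rescaled to TPM (1000000 per library) and summed by Swiss-Prot name, KO entry, GO term and family. The CV was computed over 3 libraries, and counting error taken as 1 over the square root of the mean reads. Dispersion and TMM factors came from edgeR 4.0.16 on rounded counts, size factors from DESeq2 1.42.0 (R 4.3.3); other steps used pandas 2.3.3 in Python 3.11.15. No group comparison was made and no test was run. The copy and dispersion measures were tested on simulated data.

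Named are the 15 names, 10 KO entries and 5 unigenes of highest TPM, the 5 GO terms of highest share per ontology, all 42 families, the 8 most and 8 least variable names of at least 50 TPM, the 6 most and 6 least unequal of at least 5 copies, and the qRT-PCR unigenes. Names in which replicate 1 stood apart, the flavonoid and plastid-encoded lists and the second copies were chosen after their values were seen. Members and lists were chosen with earlier results of these data known, and protein names that a family's search term had caught in error were taken out. Alternatives were another unit, length and value filters, grouping by KO and leaving out each replicate.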

Additional observations from a re-analysis of the deposited data

How the results depend on the processing

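The photosynthesis share of 3.73% of the TPM was 4.46% of the reads, 4.32% with unigenes of at least 500 bp and 4.46% with reads per kb of full length (an alternative chosen after seeing the data). Leaving out 1 replicate gave 3.61% to 3.87%. The number of unigenes holding 50% was 4591 to 5796 under the alternatives tried, with 5519 to 5650 when 1 replicate was left out. The median CV of unigenes was 9.49% at 500 bp or more, 9.63% at 100 reads or more (added later), 41.0% without the filter on low values and 8.41% to 10.6% without 1 replicate. For protein names it was 6.91% with TMM, 6.79% with DESeq2 size factors, 11.3% without the filter and 5.67% to 7.26% without 1 replicate; 2 libraries give lower medians by construction. The median leading share of 36.7% was 35.1% by reads, 37.3% at 500 bp or more, 35.6% at 1 FPKM or more, 31.2% by KO entry, 34.7% by reads per kb, and 36.6% to 36.7% without 1 replicate. The same unigene led in 79.9% of names by TPM, 83.6% by reads and by reads per kb, 85.3% at 500 bp or more, 77.7% by KO entry, and 85.4% to 87.1% when only 2 libraries had to agree. The Rubisco small chain share of 0.577% was 0.337% by reads, 0.498% by reads per kb and 0.309% at 500 bp or more. Of the recomputed values of the main measures 28 moved and 20 did not, and of those of the secondary measures 23 moved and 25 did not. A share was called moved when it changed by at least the SD between replicates. A count was called moved when it changed by over 1.5 times. For all other measures the limit was the SD of the values found without 1 replicate. For the leading share that limit was only 0.038 percentage points. Names that open with Probable or Putative lay outside the search terms of some families. Including them, an alternative chosen after seeing the data, multiplied the mean TPM of cell wall enzymes by 2.61 and of sucrose and starch synthesis by 1.46, and brought the CV of the proteasome family to 0.546%. No other family moved by more than 1.06 times, and no photosynthesis family changed. No paired analysis was possible because a single group was described. The lists hide values under 0.3 FPKM, so absence from them is not absence of the message.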
